A study of Mus musculus with 2 samples.

Results

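The genes described here are 10 genes of the endoplasmic reticulum (ER) of mouse: the chaperones and folding enzymes Hspa5, Hsp90b1, Calr, Canx, Pdia3, Pdia4 and Pdia6, and the stress factors Atf4, Atf6 and Xbp1. They were taken by symbol from the 32285 genes of the deposited matrices, where all 10 were found. Their counts were summed over nuclei of each hippocampal cell class, and the levels were compared across classes and between 2 libraries. Nuclei of the hippocampus had been profiled by single-nucleus RNA sequencing, with the droplet method of 10x Genomics that reads the 3′ ends of transcripts, in C57BL/6J mice aged 6 weeks. All mice had received an adeno-associated virus (AAV), a vector that carries a gene into cells, into the spaces of both brain ventricles at postnatal day 0. The control group, AAV-STOP, received a human MAPT transcript in which a premature stop codon prevents the making of tau. The AAV-TAU group received the full-length, wild-type 2N4R form of human tau. Both groups therefore had the vector, the injection and a human MAPT transcript, and they differed in the making of tau protein. The promoter that drove the transcript is not given in the sources used here, and no nucleus could be marked as transduced, since the gene list held no human MAPT. Each group was 1 library from the pooled hippocampi of 3 mice, which allows no test and leaves the spread between mice unknown. The comparison asks whether the ER folding genes stood at another level in any cell class where wild-type human tau was made.

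The ER is the compartment in which secreted and membrane proteins are folded. Hspa5 encodes BiP, the ER member of the Hsp70 family, which binds unfolded chains and also holds the stress sensors inactive. When unfolded proteins gather, 3 sensors of the ER membrane start the unfolded protein response: ATF6 is cut and its free part moves to the nucleus, IRE1 splices the Xbp1 message, and PERK slows translation while favouring that of ATF4. ATF6 and XBP1 raise the transcription of chaperones, and ATF4 that of genes for amino acid supply and redox balance. Neurons carry a large load of membrane and secreted proteins, and this response has been studied in many disorders of protein aggregation. Tau itself is a protein of the cytosol. A 3′ count does not separate spliced from unspliced Xbp1 message or cut from uncut ATF6, so the levels below are those of transcripts and not of sensor activity.

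The element through which ATF6 acts together with the factor NF-Y is the ER stress response element (ERSE), spelled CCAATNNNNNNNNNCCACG, which is CCAAT and CCACG with any 9 bases between them. Both strands of the RefSeq promoters of build GRCm38.p6 were searched for it, from 250 bases before to 50 bases after each gene's start. It was found in 39 of 32851 promoters (0.119%) and in 5 of the 9 members that had a promoter in the table. Those 5 were Hspa5, Hsp90b1, Calr, Canx and Pdia6, and Hsp90b1 held 2 matches. The windows below show how the same element lies in promoters of genes that are compared throughout. They run 5′ to 3′ along the gene's strand, the capitals mark the element, and where it lies on the other strand its reverse complement is in capitals. The Hspa5 element begins 65 bases before the RefSeq start, in chr2:34772020-34772048 on the plus strand, and lies in the 5′ UTR of a GENCODE transcript that starts further upstream (34771970 to 34772146), so a short stretch of it is shown. The 2 Hsp90b1 windows, 212 and 107 bases before the start, are chr10:86705613-86705681 and chr10:86705528-86705556 on the minus strand. The Calr window, 162 bases before the start, is chr8:84847050-84847118 on the minus strand. The Canx window, 145 bases before the start, is chr11:50325775-50325843 on the minus strand. The Pdia6 window, 98 bases before the start, is chr12:17266466-17266534 on the plus strand.
Hspa5: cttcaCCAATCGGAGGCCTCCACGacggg
Hsp90b1, far match: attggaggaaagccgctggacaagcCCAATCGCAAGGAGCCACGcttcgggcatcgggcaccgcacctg
Hsp90b1, near match on the other strand: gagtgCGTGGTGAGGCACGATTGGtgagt
Calr, on the other strand: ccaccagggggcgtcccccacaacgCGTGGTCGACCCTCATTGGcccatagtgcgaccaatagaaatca
Canx: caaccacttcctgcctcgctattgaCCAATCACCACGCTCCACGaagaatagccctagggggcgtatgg
Pdia6: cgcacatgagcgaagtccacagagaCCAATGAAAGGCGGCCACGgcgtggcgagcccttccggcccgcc

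No match to the element in these letters lay in the windows of Pdia3, Pdia4, Atf4 and Xbp1. For Pdia4 and Xbp1 the bases just after the RefSeq start did not match a GENCODE transcript of the gene. The absence of a match there holds for the RefSeq windows only. A second form, ERSE-II (ATTGGNCCACG), was in 12 promoters of the genome-wide set (0.0365%), the XBP1 element UPRE (TGACGTGG) in 222 (0.676%) and the ATF4 element CARE (TGATGNAA) in 1304 (3.97%), and none of these 3 was in a window of the 9 members. The letters of the motifs searched do not overlap in the printed matches. A match is a description of the letters in one window and not a measure of binding.

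The AAV-STOP library held 20265 barcodes and 130252240 unique molecular identifiers (UMIs, the count of distinct captured transcripts), and the AAV-TAU library 19596 barcodes and 109428807 UMIs. After filtering, 17997 and 17603 nuclei were kept, at medians of 5528 and 4923 UMIs. Mitochondrial UMIs made up a median of 0.174% and 0.282%. The same barcode sequence occurred in both libraries for 116 barcodes. Marker genes put 33 of 48 joint clusters into 19 classes, each written with the ending -like, since only markers stand behind the name. The other 15 clusters had no class and took 2839 nuclei of AAV-STOP (15.8%) and 2726 of AAV-TAU (15.5%), under thresholds of naming set after seeing the data. Levels are compared in the 14 classes with 100 or more nuclei in both libraries. As examples, the 8 granule markers summed to 1500.4 and 1508 CPM in granule-like neurons, and the 8 microglia markers to 7170 and 7091 CPM in microglia-like nuclei. Clusters were named from these same lists, so such sums are no separate evidence for the names. Some lists were not specific: the inhibitory neuron list summed to 1651 and 1596 CPM in granule-like neurons, above the granule list, and the CA1 list to 2407 and 2264 CPM in oligodendrocyte-like nuclei, against 2386 and 2165 CPM in CA1-like neurons. CPM is the count of a gene per 1000000 UMIs of the class, and values are given for AAV-STOP first and AAV-TAU second. All intervals are exact 95% intervals that cover counting error only.

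The 7 chaperones were highest in microglia-like nuclei in both libraries and lowest in pyramidal neuron-like classes. Their summed level was 2485 and 2471 CPM in microglia-like nuclei, 1747 and 1581 CPM in fibroblast-like nuclei, 1420 and 1409 CPM in oligodendrocyte-like nuclei and 1311 and 1285 CPM in astrocyte-like nuclei. In neurons it was 1059 and 1085 CPM in inhibitory neuron-like nuclei, 881 and 842 CPM in granule-like, 750.0 and 779.6 CPM in CA1-like, 605 and 589 CPM in CA3-like and 509 and 497 CPM in CA2-like nuclei. Immature neuron-like nuclei stood with the glia, at 1339 and 1289 CPM, and Cajal-Retzius-like neurons, an early-born neuron of the outer layer, at 1515 and 1393 CPM. Of the 10 genes, 4 were at least 2 times the median of the other classes in microglia-like nuclei in both libraries, where 12.4% of 7919 genes were: Hsp90b1, Calr, Pdia4 and Xbp1. In CA2-like neurons 6 of the 10 were lower by that rule, where 14.3% of genes were: Hspa5, Hsp90b1, Canx, Pdia3, Pdia4 and Pdia6. In CA3-like neurons 4 were lower, where 11.7% of genes were: Hspa5, Canx, Pdia3 and Pdia4. In granule-like neurons 1 was higher, Atf6, where 7.36% of genes were.

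**Figure D1:**
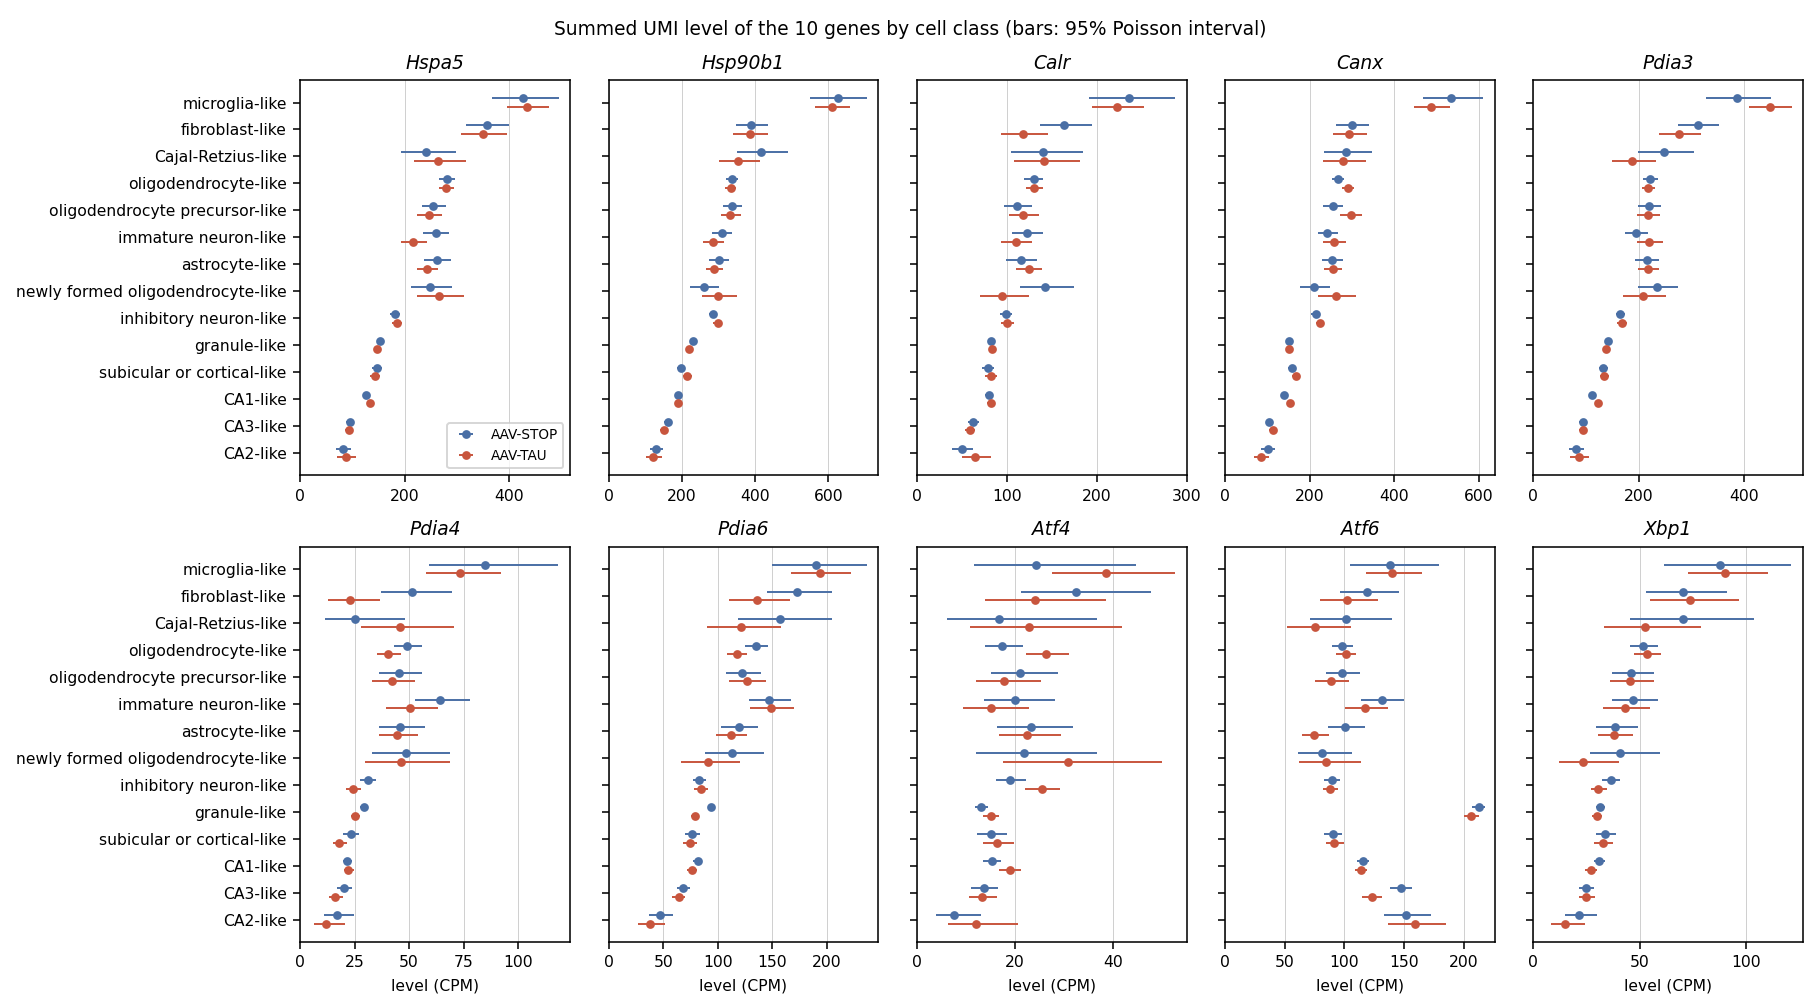
Level of each of the 10 genes in CPM (horizontal axis, a scale of its own for each gene) in the 14 classes, ordered by the summed level of the 7 chaperones, for AAV-STOP (blue) and AAV-TAU (red), 1 library each; points are summed counts per 1000000 UMIs and bars exact 95% Poisson intervals. The 7 chaperones and Xbp1 are highest in microglia-like nuclei, while Atf6 is highest in granule-like neurons at 213 and 206.5 CPM.

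Hspa5 (ENSMUSG00000026864, chromosome 2, 34771970 to 34777547 in GRCm38), the BiP gene, stood at 428 CPM (367 to 496) in AAV-STOP and 435 CPM (396 to 477) in AAV-TAU in microglia-like nuclei. In fibroblast-like nuclei it stood at 357 CPM (317 to 401) and 349.9 CPM (308 to 396), and the intervals of these neighbours overlapped or met in both libraries. Next came oligodendrocyte-like nuclei at 281 and 279.6 CPM, apart from the fibroblast-like class in both libraries. Astrocyte-like nuclei were at 262 and 243 CPM. Inhibitory neuron-like nuclei at 181 and 185 CPM were apart from granule-like neurons at 152 and 147 CPM. CA1-like neurons at 125 and 133 CPM were apart from CA3-like neurons at 95.6 and 92.9 CPM. CA2-like neurons were lowest, at 82.5 and 88.1 CPM, with an interval that overlapped that of CA3-like neurons. The highest class was thus 5.19 times the lowest in AAV-STOP and 4.94 times in AAV-TAU.

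Hsp90b1 (ENSMUSG00000020048, chromosome 10, 86690209 to 86705509), encodes the ER Hsp90 protein GRP94, and its microglia-like levels were 625 CPM (551 to 706) and 610.2 CPM (564 to 659.7). The next class was Cajal-Retzius-like in AAV-STOP, at 416 CPM (352 to 489), and fibroblast-like in AAV-TAU, at 385 CPM (341 to 434), and microglia-like nuclei were apart from it in each library. It was at 231 and 218 CPM in granule-like neurons and 130 and 122 CPM in CA2-like neurons. The gene overlaps the gene model Gm15344 on the same strand, so reads in the shared part may be split between them. The lectin chaperones, which hold newly glycosylated proteins, were also highest in microglia-like nuclei in both libraries. Calr (ENSMUSG00000003814, chromosome 8, 84841850 to 84846934), the soluble calreticulin, was at 236 and 222 CPM in microglia-like nuclei and 50.0 and 64.9 CPM in CA2-like neurons. In AAV-TAU its lowest class was CA3-like, at 59.0 CPM. Canx (ENSMUSG00000020368, chromosome 11, 50293961 to 50325673), the membrane-bound calnexin, was at 535 and 487 CPM in microglia-like nuclei and 101 and 85.3 CPM in CA2-like neurons.

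The protein disulfide isomerases form and rearrange the disulfide bonds of folding proteins. Pdia3 (ENSMUSG00000027248, chromosome 2, 121413775 to 121438687), which works with calreticulin and calnexin, was at 387 and 449 CPM in microglia-like nuclei and 81.3 and 86.2 CPM in CA2-like neurons. For Pdia4 (ENSMUSG00000025823, chromosome 6, 47796141 to 47813430) the microglia-like levels were 85.1 CPM (59.3 to 118) and 73.5 CPM (57.9 to 92.0). Its CA2-like levels were 16.9 CPM (11.1 to 24.6) and 12.1 CPM (6.42 to 20.6). Immature neuron-like nuclei came second for this gene in both libraries, at 64.4 CPM in AAV-STOP and 50.4 CPM in AAV-TAU. Pdia6 (ENSMUSG00000020571, chromosome 12, 17266545 to 17284770), which also acts on the sensors IRE1 and PERK, was at 189.6 and 193 CPM in microglia-like nuclei and 47.5 and 38.0 CPM in CA2-like neurons. Pdia3 overlaps Catsper2, and Pdia6 overlaps Atp6v1c2, on the other strand. Whether the counting used strand is not given in the sources used here.

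The stress factors did not share one order. Atf6 (ENSMUSG00000026663, chromosome 1, 170704674 to 170867771) was highest in granule-like neurons, at 213 CPM (207 to 218) and 206.5 CPM (201 to 213), 2.10 and 2.04 times the median of the other classes. CA2-like neurons came second at 152 and 159 CPM, and the granule-like class was apart from them in both libraries. The lowest Atf6 levels were in newly formed oligodendrocyte-like nuclei of AAV-STOP, at 81.4 CPM, and in astrocyte-like nuclei of AAV-TAU, at 74.9 CPM. All other neighbours in its order overlapped. Xbp1 (ENSMUSG00000020484, chromosome 11, 5520659 to 5525893) followed the chaperones, at 87.5 CPM (61.3 to 121) and 89.9 CPM (72.6 to 110.2) in microglia-like nuclei and 21.3 and 14.8 CPM in CA2-like neurons. Atf4 (ENSMUSG00000042406, chromosome 15, 80255184 to 80257541) was low in all classes, from 7.50 to 32.6 CPM in AAV-STOP and from 12.1 to 38.7 CPM in AAV-TAU. For Atf4 and Xbp1 the intervals of all 13 pairs of neighbours overlapped in both libraries. Over the 14 classes the order of each gene in one library matched that in the other with a Spearman rho between 0.719 for Atf4 and 0.965 for Pdia6, and both orders rest on classes from the same joint clustering.

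The chaperone level of a class moved with the depth of its nuclei. Over the 14 classes the summed chaperone CPM had a Spearman rho of -0.938 with the median UMIs per nucleus in AAV-STOP and of -0.960 in AAV-TAU. Its rho with the median mitochondrial share was 0.886 and 0.754. Microglia-like nuclei had medians of 2236 and 1926 UMIs, and CA2-like neurons 10437 and 9393. Inside the CA1-like class this held only in part. The shallowest cluster, 23, had medians of 3473 and 4262 UMIs, mitochondrial shares of 0.943% and 0.894% and Hspa5 levels of 227 and 197 CPM. The deeper CA1-like cluster 3 had Hspa5 at 116 and 121 CPM, mitochondrial shares of 0.103% and 0.179% and medians of 7089 and 6781 UMIs. The deepest, cluster 5, had medians of 7946 and 7542 UMIs and mitochondrial shares of 0.140% and 0.276%. Its Hspa5 levels, 120 and 131 CPM, were above those of cluster 3. The granule-like clusters 35, 0, 2 and 4, from shallowest to deepest, had summed chaperone levels of 1595, 888, 870 and 861 CPM in AAV-STOP. In AAV-TAU these were 1413, 841, 810 and 852 CPM. Markers of oligodendrocytes, of which all 8 had a UMI, summed to 1284 and 1428 CPM in microglia-like nuclei, against 18717 and 16895 CPM in oligodendrocyte-like nuclei. The part of depth, mitochondrial share and other cells' RNA in the order of the classes was not tested. Among 7909 other genes, the 5 whose log2 level over classes and libraries was most like the summed chaperones (28 points, 14 classes) were Tmem59 (Pearson r 0.976), Psap (0.969), Ctsb (0.965), Bcap31 (0.963) and Atp6v0c (0.961). Tmem59 ranged from 53.1 to 207 CPM over classes in AAV-STOP, and Psap, the precursor of lysosomal saposins, from 106 to 576 CPM. The points share libraries and the depth of their nuclei.

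Between the libraries, the summed level of the 10 genes differed by less than 6% in each of the 7 main classes under the main settings. It was 1138 and 1094 CPM in granule-like neurons, a ratio of AAV-TAU over AAV-STOP of 0.961 (0.945 to 0.977). It was 912 and 939 CPM in CA1-like neurons (ratio 1.03, 1.01 to 1.05) and 791 and 750.3 CPM in CA3-like neurons (0.948, 0.913 to 0.985). The intervals of the other main classes included 1: inhibitory neuron-like nuclei at 1204 and 1229 CPM (1.02, 0.993 to 1.05), and oligodendrocyte-like nuclei at 1587 and 1589.9 CPM (1.00, 0.971 to 1.03). Astrocyte-like nuclei were at 1474 and 1421 CPM (0.964, 0.914 to 1.02), and microglia-like nuclei at 2735 and 2739.7 CPM (1.00, 0.935 to 1.07). Larger differences stood among the other classes compared. The sum was 1969 and 1780 CPM in fibroblast-like nuclei (0.904, 0.839 to 0.975) and 1703 and 1543 CPM in Cajal-Retzius-like neurons (0.906, 0.811 to 1.01). Of those other classes, only the fibroblast-like one had an interval that left out 1. With a median-of-ratios size factor 3 of the 7 ratios of the main classes crossed 1, to 0.986 in CA1-like, 0.984 in inhibitory neuron-like and 0.962 in oligodendrocyte-like nuclei. The CA1-like ratio was also 0.999 with nuclei thinned to 1600 UMIs and 0.984 with nuclei of at most 0.2% mitochondrial UMIs. Over the 7 main classes 3 ratios crossed 1 with thinned nuclei, 2 with the mitochondrial limit and 2 as a mean over nuclei. With a floor of 2000 UMIs 1 crossed, and at leiden resolution 0.5 also 1. The bound of 6% did not hold in all settings. It was passed in granule-like and CA3-like nuclei with median-of-ratios scaling and in astrocyte-like nuclei with the mitochondrial limit. In oligodendrocyte-like nuclei it was passed at a higher leiden resolution, with values given at the end. On the CPM scale most genes stood a little higher in AAV-TAU: the median of all 9113 measured genes in granule-like neurons was a log2 ratio of 0.07, and 70.1% of them were higher in AAV-TAU. A gene counts as measured with 100 or more UMIs over both libraries and a mean of 10 CPM, and as called with a ratio of 1.2 times or more in 1 direction.

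**Figure D2:**
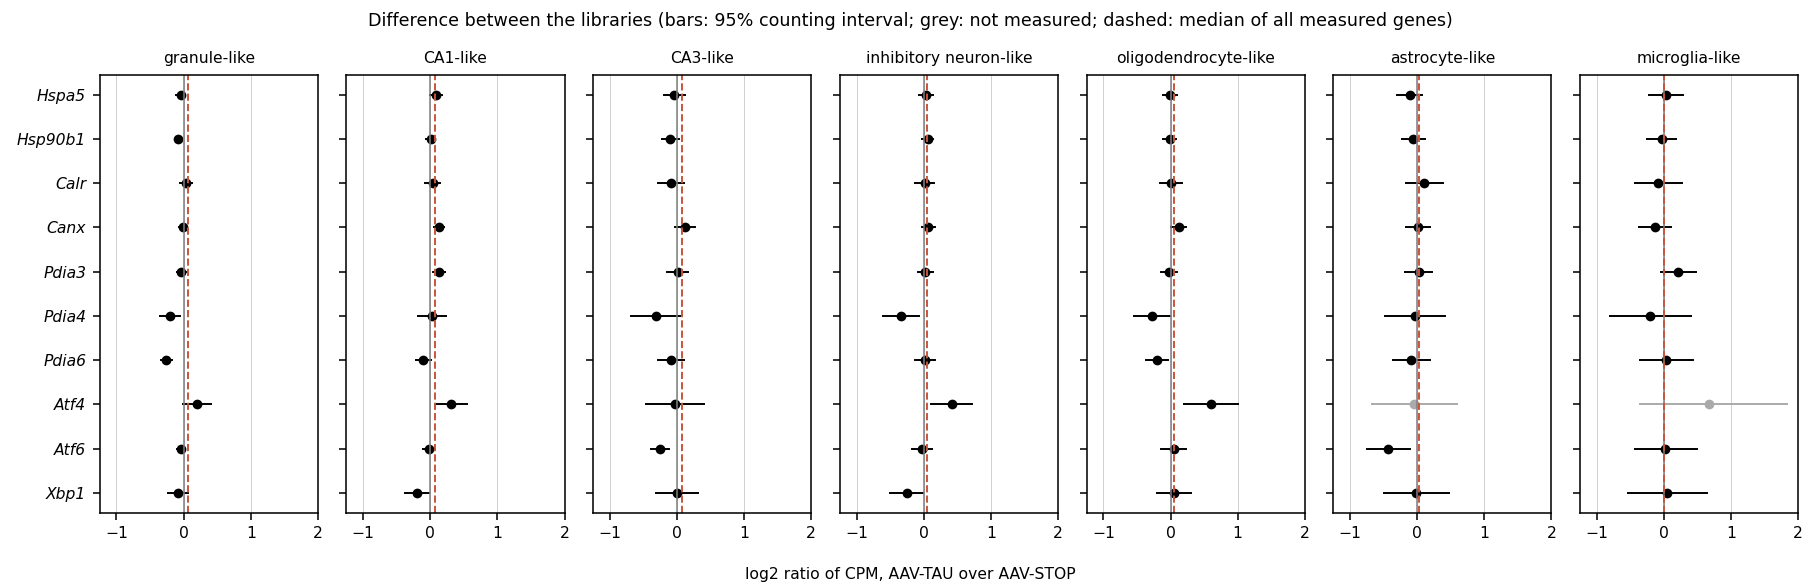
Log2 ratio of CPM, AAV-TAU over AAV-STOP (horizontal axis), of each of the 10 genes in the 7 main classes; points are ratios of summed counts of 1 library each, bars exact 95% counting intervals, grey points genes that were not measured, and dashed lines the median of all measured genes. Most intervals include 0, and Atf4 lies to the right in CA1-like, inhibitory neuron-like and oligodendrocyte-like nuclei while Pdia4 lies to the left in granule-like, inhibitory neuron-like and oligodendrocyte-like nuclei.

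In granule-like neurons all 10 genes were measured, and 8 stood lower and 2 higher in AAV-TAU, where 70.1% of all genes stood higher. None was called in either direction, where 12.6% of 9113 genes were called higher and 0.549% lower. The interval of the ratio lay below 1 for 3 of the 10 and above 1 for none, where 9.38% and 32% of genes did. Pdia6 stood at 94.2 CPM in AAV-STOP and 78.9 CPM in AAV-TAU, a ratio of 0.838 (0.789 to 0.890). Pdia4 stood at 29.2 and 25.4 CPM (0.870, 0.781 to 0.968), and Hsp90b1 at 231 and 218 CPM (0.946, 0.912 to 0.981). Between granule-like clusters the values of these 3 differed, with overlapping intervals for Pdia4 and Hsp90b1, and the difference between clusters was not tested. Pdia6 had a ratio of 0.812 (0.736 to 0.896) in cluster 0, 0.760 (0.682 to 0.846) in cluster 2 and 0.971 (0.866 to 1.09) in cluster 4. Hsp90b1 had ratios of 0.907 (0.855 to 0.962), 0.930 (0.870 to 0.995) and 1.00 (0.935 to 1.08) in those clusters, and Pdia4 of 0.852 (0.718 to 1.01), 0.824 (0.678 to 0.999) and 0.983 (0.791 to 1.22). In these clusters AAV-STOP had 2440, 1757 and 949 nuclei, and AAV-TAU had 1715, 1311 and 1095. The intervals of the other 4 chaperones and of Atf6 included 1: Hspa5 at 152 and 147 CPM (0.969, 0.926 to 1.01), Calr at 82.1 and 84.0 CPM (1.02, 0.962 to 1.09), Canx at 152 and 151 CPM (0.995, 0.951 to 1.04), Pdia3 at 141 and 137 CPM (0.975, 0.930 to 1.02) and Atf6 at 213 and 206.5 CPM (0.972, 0.935 to 1.01). Xbp1 was at 31.5 and 29.8 CPM (0.946, 0.855 to 1.05) and Atf4 at 13.1 and 15.1 CPM (1.15, 0.990 to 1.33). The median mitochondrial share of granule-like neurons stood at 0.169% and 0.269%, their median depth 5374 and 5140 UMIs, and their summed oligodendrocyte markers 731 and 740.4 CPM. Summed CA1 markers there were 378 and 422 CPM, with 7 of 7 higher in AAV-TAU, astrocyte markers 242 and 262 CPM, microglia markers 99.0 and 99.6 CPM, choroid plexus markers 75.3 and 92.2 CPM and inhibitory neuron markers 1651 and 1596 CPM. All markers of these lists had a UMI in both libraries. The part of these differences in the ratios was not tested.

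In CA1-like neurons 7 of the 10 measured genes stood higher in AAV-TAU and 3 lower, where 67.7% of all genes stood higher. Atf4 was called higher, where 12.1% of 9056 genes were, and none was called lower, where 0.729% were. The interval lay above 1 for 4 genes, where 23.6% of genes did, and below 1 for 1 gene, where 7.72% did. The 4 were Hspa5 at 125 and 133 CPM (ratio 1.06, 1.001 to 1.13), Canx at 139.5 and 153 CPM (1.09, 1.04 to 1.16), Pdia3 at 112 and 123 CPM (1.10, 1.03 to 1.17) and Atf4 at 15.3 and 19.0 CPM (1.24, 1.05 to 1.46). The fifth was Xbp1, at 30.9 and 27.0 CPM (0.873, 0.769 to 0.990). The high-chaperone cluster 23 made up 210 of 2528 AAV-STOP nuclei and 242 of 2167 AAV-TAU nuclei of the class. In cluster 5 Canx had a ratio of 1.12 (1.03 to 1.22), Hspa5 of 1.096 (1.003 to 1.198) and Xbp1 of 0.771 (0.636 to 0.934), while in cluster 3 they had ratios of 1.05, 1.04 and 1.01 with intervals that included 1. In cluster 23 Hspa5 had a ratio of 0.869 (0.736 to 1.03), Canx of 0.953 (0.819 to 1.11) and Xbp1 of 0.727 (0.491 to 1.07). Atf4 had a ratio of 1.36 (1.06 to 1.76) in cluster 3, 1.09 (0.843 to 1.41) in cluster 5 and 1.14 (0.745 to 1.75) in cluster 23. With nuclei thinned to 1600 UMIs each the class ratios of Hspa5 and Atf4 fell below 1, to 0.958 and 0.982. With marked doublets kept that of Xbp1 was 1.00343, so the direction of these 3 turned with those settings. The class named CA1-like with doublets kept was smaller, at 1422 and 1088 nuclei in place of 2528 and 2167. The part of this loss of nuclei in the Xbp1 ratio was not tested. Set against genes of like length, the Hspa5 ratio was 0.973. The median mitochondrial share of the class was 0.129% and 0.236%.

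In CA3-like neurons 7 of the 10 genes stood lower in AAV-TAU and 3 higher, where 66.1% of all genes stood higher. Atf6 stood at 147 CPM in AAV-STOP and 123 CPM in AAV-TAU, a ratio of 0.836 (0.762 to 0.916), and it was the 1 gene with an interval below 1, where 5.71% of 8708 genes had one below 1 and 15.1% one above. Pdia4 was called lower, where 3.03% of genes were, at 20.1 and 16.1 CPM (0.803, 0.620 to 1.04), an interval that included 1. None was called higher, where 16.9% of genes were. In CA2-like neurons the 7 measured genes had intervals that included 1, where 4.4% of 3888 genes had one above 1 and 4.96% one below, and Atf6 was at 152 and 159 CPM (1.05, 0.859 to 1.28).

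In inhibitory neuron-like nuclei Atf4 was higher and Pdia4 and Xbp1 were lower in AAV-TAU. Atf4 stood at 19.1 and 25.5 CPM (ratio 1.34, 1.08 to 1.65) and was the 1 gene called higher, where 14.9% of 9557 genes were. Pdia4 stood at 30.9 and 24.4 CPM (0.790, 0.653 to 0.954) and was the 1 gene called lower, where 2.42% were. Xbp1 stood at 36.4 and 30.6 CPM (0.839, 0.707 to 0.995). An interval above 1 was found for 15.6% of all genes of the class and one below 1 for 6.8%. The other 7 genes had ratios from 0.985 for Atf6 to 1.05 for Canx, with intervals that included 1. In subicular or cortical-like neurons Hsp90b1 stood at 196 and 215 CPM (1.09, 1.01 to 1.18), where 16.8% of 9369 genes had an interval above 1 and 6.17% one below. Pdia4 there stood at 23.1 and 18.0 CPM (0.780, 0.605 to 1.002). In immature neuron-like nuclei Hspa5 stood at 259 and 217 CPM (0.836, 0.720 to 0.969), where 6.91% of 5948 genes had an interval below 1 and 8.76% one above. Cajal-Retzius-like neurons had no member with an interval apart from 1, where 7.13% of 1459 genes had one above 1 and 10.3% one below.

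In oligodendrocyte-like nuclei the 10 measured genes split evenly, 5 higher and 5 lower in AAV-TAU, where 60.0% of all genes stood higher. Atf4 stood at 17.5 and 26.4 CPM, from 83 and 143 UMIs, a ratio of 1.51 (1.15 to 2.00), and was called higher, where 23.7% of 9353 genes were. Pdia4 stood at 49.1 and 40.5 CPM (0.824, 0.682 to 0.996) and was called lower, where 7.21% were. Pdia6 stood at 135 and 117 CPM (0.869, 0.777 to 0.971) and Canx at 266 and 289.6 CPM (1.09, 1.01 to 1.17). An interval above 1 was found for 18.5% of all genes of the class and one below 1 for 8.59%. The median mitochondrial share of the class was 0.291% and 0.430%, and its depth 2589 and 2392 UMIs. Canx was also higher in oligodendrocyte precursor-like nuclei, at 255 and 298 CPM (1.17, 1.03 to 1.33), where 10.9% of 6360 genes had an interval above 1 and 7.22% one below. In newly formed oligodendrocyte-like nuclei Calr stood at 142.5 and 94.5 CPM, from 91 and 49 UMIs (0.663, 0.459 to 0.949), where 8.51% of 2081 genes had an interval below 1 and 7.21% one above. In fibroblast-like nuclei it stood at 164 and 118 CPM (0.716, 0.537 to 0.950), where 12% of 3429 genes had an interval below 1 and 11.7% one above.

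In astrocyte-like nuclei Atf6 stood at 101 and 74.9 CPM, from 165 and 173 UMIs, a ratio of 0.742 (0.596 to 0.924), and it was called lower, where 12.4% of 6811 genes were and 22% were called higher. An interval below 1 was found for 9.12% of those genes and one above 1 for 12.3%. The other 8 measured genes had intervals that included 1, among them Hspa5 at 262 and 243 CPM (0.926, 0.815 to 1.05). Microglia-like nuclei showed no difference that counting error could separate from 1 in any of their 9 measured genes, although they had the highest chaperone levels. Hspa5 there had a ratio of 1.02 (0.853 to 1.22), Hsp90b1 of 0.977 (0.843 to 1.13), Canx of 0.911 (0.776 to 1.07) and Pdia3 of 1.16 (0.967 to 1.40). None of the 9 was called, where 21.1% of 3392 genes were called higher and 17.6% lower, and where 7.64% had an interval above 1 and 7.34% one below. There were 172 nuclei and 411323 UMIs of this class in AAV-STOP, and 515 nuclei and 1034048 UMIs in AAV-TAU, so a change under these bounds was not detectable at this depth.

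Read gene by gene over the classes in which each was measured, Pdia4 was lower in AAV-TAU in 9 of 10 classes, with an interval below 1 in 3, and Pdia6 in 10 of 14, with an interval below 1 in 2. Hsp90b1 was also lower in 10 of 14, with an interval below 1 in 1 and above 1 in another. Atf4 was higher in 5 of 6 classes, with an interval above 1 in 3. Canx was higher in 9 of 14, with an interval above 1 in 3. Hspa5 was higher in 6 and lower in 8. Of the 6 members measured in all 14 classes, 2 (Hspa5 and Hsp90b1) had an interval above 1 in a class and below 1 in another, where 26% of 964 genes measured in all 14 did. The classes share the 2 libraries, so these counts are not independent.

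**Figure D3:**
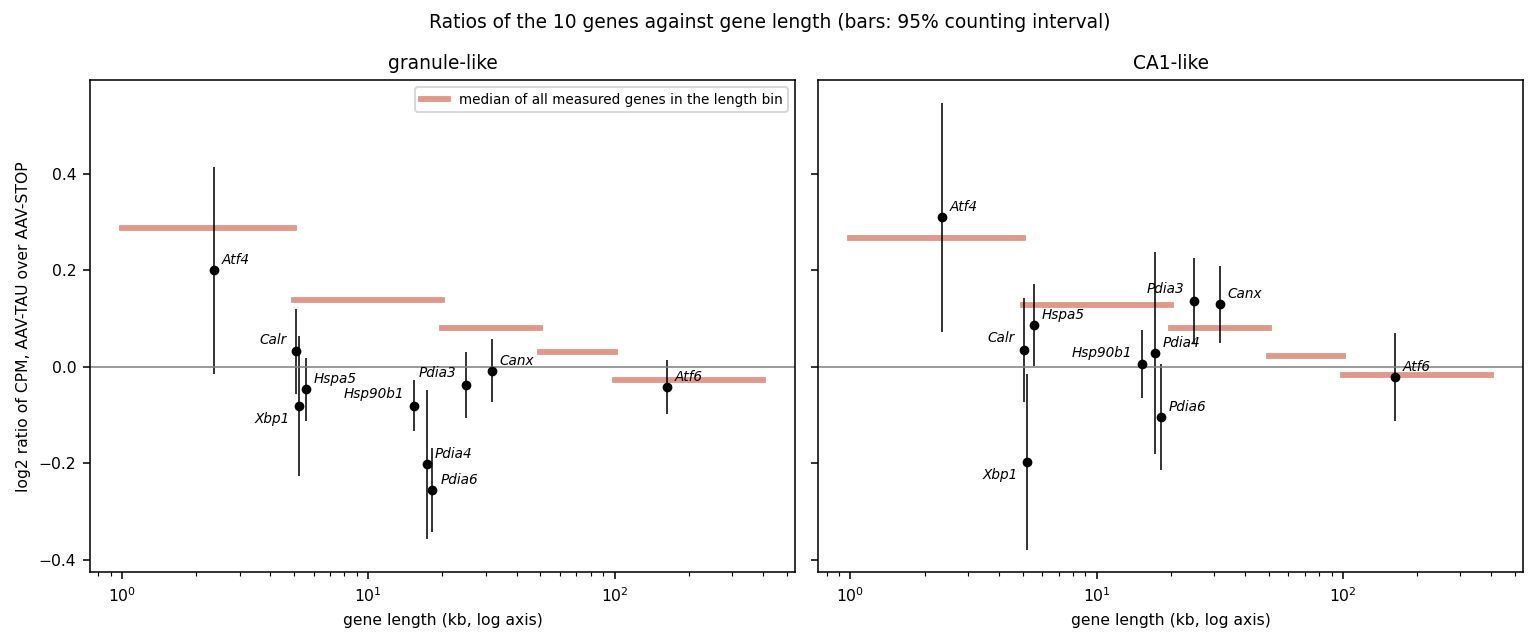
Log2 ratio of CPM, AAV-TAU over AAV-STOP (vertical axis), of the 10 genes against gene length in kb (log axis) in granule-like and CA1-like neurons; points are ratios of 1 library each, bars exact 95% counting intervals, and red lines the median of all measured genes in each of 5 length ranges. The red lines step down from short to long genes, and Pdia4 and Pdia6 in granule-like neurons lie below the line for 5 to 20 kb, a median ratio of 1.10.

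The ratios of all genes depended on gene length, and the 10 genes span lengths from 2.36 kb (Atf4) to 163 kb (Atf6). In granule-like neurons the median ratio was 1.22 for genes under 5 kb, 1.10 for 5 to 20 kb and 0.981 for those over 100 kb. The CA1-like medians were 1.203, 1.09 and 0.988. The Atf4 ratio of 1.15 in granule-like and 1.24 in CA1-like neurons was thus near the median of genes of its length, and over the 6 classes where Atf4 was measured it lay below that median in 3. Pdia6 (18.2 kb) lay below the median of genes of like length in 14 of 14 classes, Pdia4 (17.3 kb) in 10 of 10, Xbp1 (5.24 kb) in 11 of 11, Hsp90b1 (15.3 kb) in 13 of 14, Calr (5.09 kb) in 13 of 14 and Hspa5 (5.58 kb) in 12 of 14. Pdia3 (24.9 kb) lay below it in 10 of 14, Canx (31.7 kb) in 7 of 14 and Atf6 in 7 of 12. Of the 6 members measured in all 14 classes, 4 lay below in 12 or more, a number chosen after the values were seen, where 10.5% of 964 genes did. The classes share the same 2 libraries. The part of length in the ratios of single genes was not tested.

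The other genes of the pathway were read from 5 lists. Of the sensors and transducers, 8 of 10 were measured in granule-like neurons, 7 higher and 1 lower, with a median log2 ratio of 0.07, the same as over all genes. Of all genes measured there, 70.1% were higher. Nfe2l1, an ER membrane transcription factor that controls proteasome genes, stood at 69.2 and 87.2 CPM in CA1-like neurons (ratio 1.26, 1.17 to 1.36). Creb3l2, an ER membrane factor related to ATF6, stood at 30.6 and 24.9 CPM there (0.815, 0.716 to 0.928). Eif2s1, the translation factor that PERK phosphorylates, stood at 28.4 and 40.1 CPM in oligodendrocyte-like nuclei (1.41, 1.13 to 1.76). Of the other ER chaperones and folding enzymes, 19 of 20 were measured in granule-like neurons, 12 higher and 7 lower, at a median of 0.03. The co-chaperone of BiP Dnajb9 (4.77 kb) stood at 13.2 and 16.0 CPM in granule-like neurons (1.21, 1.04 to 1.40). Genes under 5 kb had a median ratio of 1.22 in that class, so the Dnajb9 ratio was near that of genes of its length. In oligodendrocyte-like nuclei the Dnajb9 ratio lay on the other side of 1, at 0.797 (0.616 to 1.03), an interval that included 1. Dnajb11, another co-chaperone of BiP, stood at 48.5 and 38.9 CPM in inhibitory neuron-like nuclei (0.803, 0.691 to 0.932). Fkbp2 stood at 49.5 and 74.9 CPM in astrocyte-like nuclei (1.51, 1.15 to 1.99). The part of gene length in the ratios of these listed genes was not tested.

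Of the genes of ER-associated degradation, by which misfolded proteins are passed to the proteasome, 13 of 14 were measured in granule-like neurons, 6 higher and 7 lower, at a median of -0.01. Sel1l, a scaffold of the ubiquitin ligase complex, stood at 122 and 108 CPM (0.888, 0.843 to 0.935), and Vcp, the ATPase that extracts substrates, at 62.8 and 75.1 CPM (1.197, 1.12 to 1.28). Vcp was also higher in CA1-like neurons, at 59.1 and 71.6 CPM (1.21, 1.12 to 1.32), and Herpud1 was lower in oligodendrocyte-like nuclei, at 31.8 and 23.7 CPM (0.744, 0.583 to 0.947). In microglia-like nuclei Erlec1, a lectin of this pathway, stood at 143 and 97.7 CPM (0.681, 0.489 to 0.955).

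The targets of ATF4 and the integrated stress response had the highest median of the 5 lists in granule-like neurons. Of 20, the 9 that were measured there were all higher in AAV-TAU, where 70.1% of all genes were, and 5 were called, where 12.6% were, at a median of 0.27 against 0.07 for all genes. In inhibitory neuron-like nuclei 8 of 9 were higher, where 62.5% of all genes were, and 4 called, where 14.9% were, at a median of 0.24. In CA1-like neurons 6 of 6 were higher, where 67.7% of all genes were, and 1 called, where 12.1% were, at 0.12. In CA3-like neurons 5 of 7 were higher, where 66.1% of all genes were, and 3 called, where 16.9% were, at 0.06. In oligodendrocyte-like nuclei 6 of 10 were higher, where 60.0% of all genes were, and 3 called, where 23.7% were, at 0.11. In astrocyte-like nuclei 5 of 8 were higher, where 54.5% of all genes were, at 0.22. There 4 were called higher and 2 lower, where 22% and 12.4% of genes were. In oligodendrocyte precursor-like nuclei 3 were higher and 3 lower, at -0.03. The 0.07 for granule-like neurons is a median over genes of all lengths. Genes under 5 kb had a median of 0.29 in that class, with 91.9% higher, and genes of 5 to 20 kb one of 0.14. The list was not set against genes of like length, so the part of gene length in its values was not tested. Nars, an asparagine tRNA synthetase, was higher in several classes: 61.3 and 81.2 CPM in granule-like neurons (1.33, 1.24 to 1.41), 64.8 and 81.8 CPM in CA1-like neurons (1.26, 1.17 to 1.36), and 74.6 and 116 CPM in astrocyte-like nuclei (1.56, 1.26 to 1.95). The amino acid transporter Slc7a5 stood at 10.9 and 13.9 CPM in granule-like neurons (1.27, 1.08 to 1.49) and 25.3 and 33.5 CPM in inhibitory neuron-like nuclei (1.32, 1.10 to 1.59). Atf5, a factor related to ATF4, stood at 7.41 and 13.6 CPM in inhibitory neuron-like nuclei (1.84, 1.34 to 2.55), and Asns, the asparagine synthetase, at 15.2 and 21.8 CPM in oligodendrocyte-like nuclei (1.44, 1.06 to 1.96). Ddit3, which encodes the death-related factor CHOP, was under the filter in granule-like neurons, at 4.27 and 4.71 CPM (1.10, 0.844 to 1.44), and so were Trib3 with 5 and 1 UMIs and Chac1 with 24 and 16 UMIs. These 3 were named after their values were seen.

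**Figure D4:**
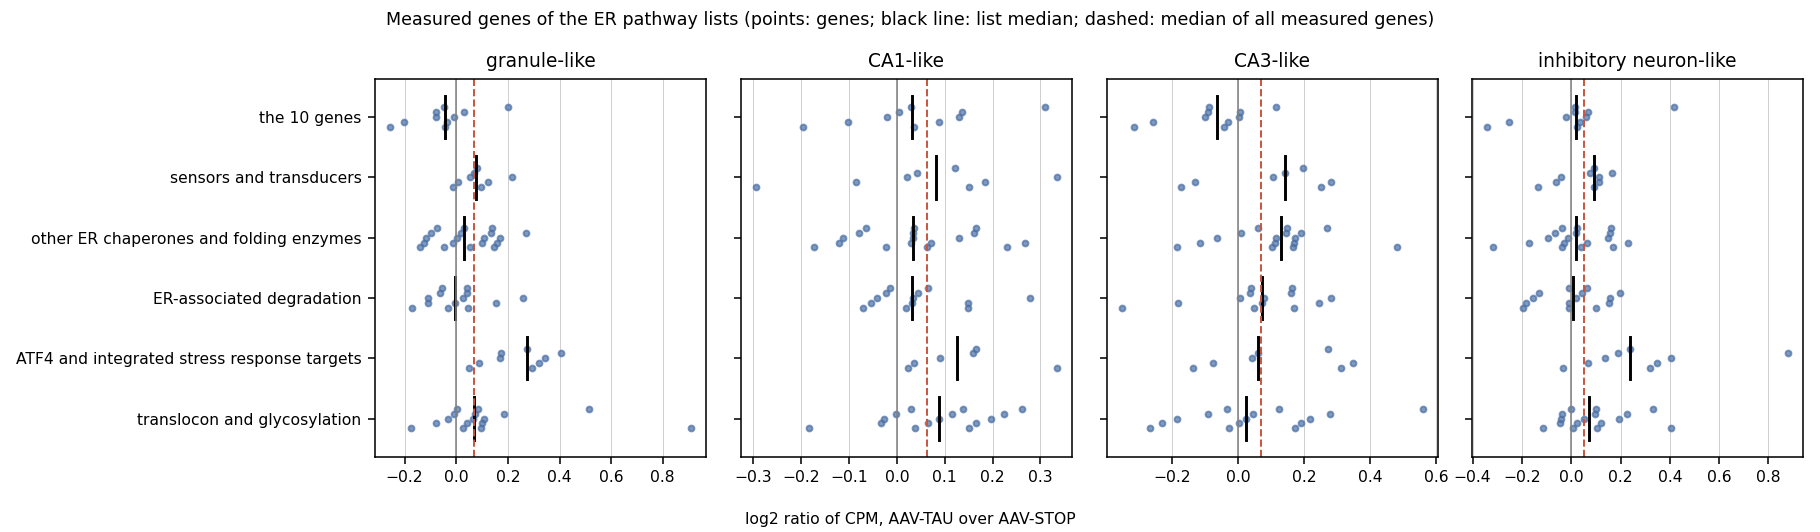
Log2 ratio of CPM, AAV-TAU over AAV-STOP (horizontal axis), of the measured genes of the 10-gene set and of 5 lists of the ER pathway in 4 neuronal classes; each point is 1 gene, black lines are list medians and dashed lines the median of all measured genes. In granule-like neurons the median of the 10 genes, -0.04, lies to the left of the dashed line at 0.07, with Atf4 itself to the right of it, and the median of the ATF4 targets, 0.27, lies to the right, with Cebpb to the left.

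Of the translocon and glycosylation genes, which bring chains into the ER and attach sugars, all 16 were measured in granule-like neurons, 12 higher and 4 lower, at a median of 0.07. Sec61b, a small subunit of the channel, stood at 7.90 and 14.8 CPM (1.88, 1.59 to 2.23) and Sec61g, another, at 17.3 and 24.7 CPM (1.43, 1.27 to 1.62). Both were higher in oligodendrocyte-like nuclei too, with ratios of 1.68 (1.22 to 2.34) and 1.44 (1.14 to 1.83), and Sec61g in astrocyte-like nuclei with 1.88 (1.28 to 2.81). The part of gene length in these ratios was not tested. Genes under 5 kb had a median ratio of 1.22 in granule-like neurons, 1.29 in oligodendrocyte-like and 1.27 in astrocyte-like nuclei. For the measured members of the 10 genes themselves the median log2 ratio was -0.04 in granule-like neurons, beside 0.07 for all measured genes. It was 0.03 in the CA1-like class, beside 0.06, and -0.06 in the CA3-like class, beside 0.07. The inhibitory neuron-like median was 0.02, beside 0.05. Among glia it was 0.00 for oligodendrocyte-like, beside 0.06, then -0.04 for astrocyte-like, beside 0.03, and 0.02 for microglia-like nuclei, beside 0.00.

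The nuclei without a class had a higher summed chaperone level in AAV-TAU, at 776 and 949 CPM, a ratio of 1.22 (1.196 to 1.25). Of the 7 chaperones all stood higher there, from 1.15 for Pdia6 to 1.27 for Canx, while Atf6 was at 109 and 92.3 CPM (0.844, 0.792 to 0.899). Of all 9596 genes measured in these nuclei, 64.6% stood higher. The share was 84.2% for genes of 5 to 20 kb, at a median ratio of 1.14, and 72.7% for those of 20 to 50 kb, at 1.07. The part of gene length was not tested. Without cluster 22, an alternative chosen after seeing the data, the ratio of the summed chaperones was 1.05 (1.03 to 1.07) and that of Hspa5 was 1.04 (0.982 to 1.10) in place of 1.26. Only 27 of its nuclei were from AAV-STOP and 457 from AAV-TAU, with a chaperone sum of 2392 and 3584 CPM. Its median depth was 2324 and 1754 UMIs and its mitochondrial share 1.14% and 0.589%. It was led by Cmss1, Camk1d, Lars2, Cnp and Hspa8, and no marker set passed the rule for naming it. Over the 6 clusters without a class that had 100 or more nuclei in both libraries the ratio was 1.03 (1.00 to 1.05).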

How the data were processed

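The deposited files hold raw UMI counts of each gene in each barcode, as Cell Ranger gave them to the authors. The matrix headers give its version as 8.0.1, while the submitters' processing notes name Cell Ranger 4.0, Seurat 4.4.0 and the build mm10. The 2 samples were grouped by their labels, 1 pooled library a group.

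Barcodes were kept from 500 UMIs and 300 genes upward, up to a mitochondrial share of 5%. Doublets marked by an own version of the scrublet method (2264 barcodes, 11.2%, in AAV-STOP and 1991, 10.2%, in AAV-TAU) were left out. Counts were scaled to 10000 per nucleus, and 3000 variable genes, without the 10 members and the mitochondrial genes, gave 30 components, a graph of 15 neighbours and clusters at leiden resolution 1. A cluster was named from its markers where their mean log2 excess over the median cluster reached 1.5 and led the next class by 0.3, with 3 or more markers raised 2 times. It stayed unnamed where another class had more markers among the 10 leading genes, where its nuclei were very shallow with no marker there, or where a glial or vascular cluster had over 50% of the neuronal Rbfox3 level. These thresholds were set after seeing the data. The members and lists were chosen with earlier results of these data known.

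Counts were summed per class and divided by all UMIs of the class. Levels have exact Poisson intervals and ratios exact binomial ones. These intervals cover counting error only, and no test was possible. All 10 members are named, and of each list up to 2 measured genes with the largest change in each main class were eligible. Alternatives changed the scaling, weight, depth and filtering of nuclei, the doublets, the clustering, the pseudocount, the filter on low values and the reference for gene length. Gene lengths came from GENCODE vM21 (91 of 91 IDs used), and promoters from RefSeq (9 of 10 members). The scripts were tested on simulated data. The tools were Python 3.11.15 with leidenalg 0.10.2, igraph 0.11.9 and scikit-image 0.26.0 for clustering, pandas 2.3.3, scipy 1.17.1 and numpy 2.4.6 for values, and matplotlib 3.10.9 for plots.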

Additional observations from a re-analysis of the deposited data

Results flagged for a closer look

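For 2 members the ratio of AAV-TAU over AAV-STOP lay on opposite sides of 1 in 2 classes, with both counting intervals apart from 1. The same was so for 26% of the 964 genes measured in all 14 classes. Hspa5 had a ratio of 1.06 in CA1-like neurons and 0.836 in immature neuron-like nuclei. The CA1-like ratio of Hspa5 was 0.958 with nuclei thinned to 1600 UMIs and 0.973 against genes of like length, so that in these settings it no longer lay above 1. Hsp90b1 had a ratio of 0.946 in granule-like neurons and 1.09 in subicular or cortical-like neurons. The difference between the classes was not tested, since each group is 1 library, and the classes of a library share its mice.

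In the nuclei that no class took, which lie outside the comparison by class, the summed level of the 7 chaperones had a ratio of 1.22, against 1.05 without cluster 22.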

How the results depend on the processing

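With a median-of-ratios size factor the ratio of the 10 summed genes was 0.986 in CA1-like, 0.916 in granule-like, 0.962 in oligodendrocyte-like, 0.984 in inhibitory neuron-like and 0.905 in CA3-like nuclei, so that 3 of the 7 main classes (CA1-like, inhibitory neuron-like and oligodendrocyte-like) crossed 1. With nuclei thinned to 1600 UMIs the CA1-like ratio was 0.999 for the sum, 0.958 for Hspa5 and 0.982 for Atf4. The ratio of the sum crossed 1 in 3 of the 7 main classes in that setting. With at most 0.2% mitochondrial UMIs the ratio of the sum was 0.984 in CA1-like and 0.906 in astrocyte-like nuclei, and it crossed 1 in 2 of the 7 main classes. With marked doublets kept the CA1-like ratio of Xbp1 was 1.00343, in a class of 1422 and 1088 nuclei in place of 2528 and 2167. At leiden resolution 2 the oligodendrocyte-like sum was 1.18 and Pdia6 1.03, in a class of 1692 and 2520 nuclei in place of 1663 and 2063. Divided by the median of genes of like length, Hspa5 in CA1-like neurons was 0.973. The cause of these shifts was not tested.

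Of 68 member ratios in the 7 main classes, all 68 stayed within their counting interval with a floor of 2000 UMIs, at resolution 0.5, as a mean over nuclei and with a pseudocount of 5 CPM, and of these 62, 60, 60 and 68 stayed on the same side of 1. With thinned nuclei 44 stayed on the same side, with the mitochondrial limit 52, with median-of-ratios scaling 53, with doublets kept 60, and against genes of like length 46. At resolution 2 the number was 61. In these settings some ratios left their counting interval. Within it stayed 52 with thinned nuclei, 58 with the mitochondrial limit and 63 with median-of-ratios scaling. With doublets kept 67 did, against genes of like length 50, and at resolution 2 62. No library could be left out, since each group has 1. No paired analysis was possible because each group is a single library. Depth limits the smaller classes most: the 95% interval of Hspa5 in microglia-like nuclei ran from 0.853 to 1.22.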

Other observations

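Classes with under 100 nuclei in a library were left out of the comparison, and the summed level of the 7 chaperones in some of them is given here as values. Border macrophage-like nuclei, 40 in AAV-STOP and 68 in AAV-TAU, stood at 1687 and 2419 CPM (ratio 1.43, 1.22 to 1.69). Endothelial-like nuclei, 54 and 84, stood at 1478 and 1471 CPM, and choroid plexus-like nuclei, 30 and 49, at 1646 and 1728 CPM. Mossy-like neurons of the hilus, 66 and 75, stood at 743 and 765 CPM. Within the fibroblast-like class, cluster 27 had a ratio of 1.02 and cluster 33 of 0.777 (0.679 to 0.887), from 119 and 70 nuclei. These values have counting error only, and no replicate.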
